A study of Mus musculus with 15 samples.

Results

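The SLC7 family of amino acid transporters was followed in bone marrow mesenchymal stromal cells (MSCs) with and without the taurine transporter TauT, which is encoded by *Slc6a6*. The family was taken up because *Slc7a4* stood higher in TauT-/- than in TauT+/+ MSCs. Its 10 members here, *Slc7a1* to *Slc7a8*, *Slc7a10* and *Slc7a11*, were picked by symbol out of 56832 genes, and 9 of them passed the filter on low counts. *Slc7a10* did not. The genotype difference of *Slc7a4* is therefore a description without a test. The other members were listed by family, but with earlier results of these data known.

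SLC7 proteins fall into a pair of branches. The cationic amino acid transporters, to which *Slc7a1*, *Slc7a2* and *Slc7a3* belong, carry arginine, lysine and ornithine across the plasma membrane on their own. *Slc7a4* resembles them in sequence, but its substrate is not settled. The others are light chains that reach the cell surface bound by a disulfide bridge to a heavy chain of the SLC3 family, mostly *Slc3a2* (CD98). Among the light chains, *Slc7a5* and *Slc7a8* carry large neutral amino acids, *Slc7a6* and *Slc7a7* exchange cationic for neutral ones, *Slc7a10* carries small neutral ones, and *Slc7a11* imports cystine in exchange for glutamate and so feeds glutathione synthesis.

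RNA was sequenced from cultured MSCs of 16 week old mice on the C57BL/6J background, in 15 libraries. TauT+/+ MSCs gave 4 libraries labelled male and 3 labelled female, and TauT-/- MSCs, which lack *Slc6a6* in the whole animal, gave 4 of each. The cells were grown out of femur and tibia marrow on collagen at low oxygen and depleted of, or sorted against, CD45, Ter119 and CD31 positive cells. The labels name no treatment for either genotype. The labels do not say that each library came from its own mouse, so every p-value below measures the spread between these libraries, which may in part be technical.

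Total counts spanned 69764291 to 101575071 per library under the male and 12761107 to 20781070 under the female label, so labelled sex and depth cannot be told apart, while both genotypes stood at both depths. *Slc6a6* itself spanned 592 to 2591 counts after scaling to a common library size (CPM) in TauT+/+ and 401 to 1521 CPM in TauT-/- libraries, a log2 fold change of -0.97 (SE 0.36, edgeR adjusted p = 0.125), and the genotypes overlapped. The part of the gene that the allele removes is not given in the sources used here, and libraries are named by their labels. In 3 libraries, TauT+/+ male 1, TauT-/- male 1 and TauT+/+ female 3, *Xist* and the Y-linked *Ddx3y* went against the sex label. The libraries numbered 1 of both sex labels were nearly the same within each genotype. Their log2 ratios per gene had spreads of 0.0976 (TauT-/-) and 0.108 (TauT+/+), where counting error gives 0.0547 and 0.0575 and the next closest pair of libraries had 0.253. All 15 libraries were kept. Results without 1 of each pair (13 libraries) are given for some of the values only, and the marker calls that follow rest on all 15. Of 20 macrophage markers, 19 had a higher fitted level in TauT-/- MSCs, 15 an unadjusted p under 0.05, all as higher, and 2 (*Cd68* and *Ctss*) passed the edgeR test, while DESeq2 called 9 and limma voom 8, also all as higher. Over all genes tested, 48.3% had a higher fitted level in TauT-/- MSCs and 23.6% an unadjusted p under 0.05. In either direction edgeR called 1.3%, DESeq2 11.6% and limma voom 7.67% of all genes. The summed level of the macrophage markers was 1507 to 10352 CPM in TauT+/+ and 7222 to 24087 CPM in TauT-/- libraries. *Ptprc*, which encodes CD45, stood at 27.9 to 179 CPM and 114 to 370 CPM. Of 15 MSC markers, 11 had a lower fitted level in TauT-/- MSCs and 0 passed the edgeR test. An unadjusted p under 0.05 was reached by 4 as lower and 1, *Cd44*, as higher, while DESeq2 called 2 as lower and limma voom 3 as lower and 1, *Cd44*, as higher. The MSC sums were 28511 to 47918 CPM and 6382 to 40857 CPM. Markers of osteoclasts (7 tested), neutrophils (2) and endothelial cells (5) gave 0 edgeR calls, with 0, 0 and 2 unadjusted p under 0.05 and 2 DESeq2 and 1 limma voom call among the endothelial ones. No erythroid marker passed the filter. TauT-/- female 4 had both the lowest MSC sum and the highest macrophage sum. In bulk RNA, fewer cells of a type and less RNA per cell cannot be told apart.

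Counts were scaled by edgeR's TMM method and tested in a model with sex label and genotype over the 17204 genes that passed the filter, with Benjamini-Hochberg adjustment over all of them. Of these genes, 1.3% passed an adjusted p of 0.05 in either direction, 0.546% as higher and 0.75% as lower in TauT-/- MSCs. DESeq2 on the same model called 11.6% of the genes to which it gave an adjusted p. Most edgeR calls were lost in the 13 libraries. There edgeR called 2 genes as higher and 0 as lower with the female-labelled library of each pair kept. With the male-labelled one kept it called 7 and 0. The shares of all genes given below are those of the 15 libraries.

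Per length of exon, the family split into 5 abundant members, *Slc7a7* and *Slc7a11* below them, and 3 rare ones. Mean levels over the 15 libraries were 15.1 CPM per kb for *Slc7a2*, 13.6 for *Slc7a5*, 11.7 for *Slc7a8*, 9.07 for *Slc7a6* and 6.14 for *Slc7a1*. The light chains *Slc7a7* and *Slc7a11* followed with 2.74 and 2.61 CPM per kb. The *Slc7a11* mean rested on TauT-/- female 4 (23.4 CPM per kb). Without that library it was 1.12, with 2.57 for *Slc7a7*, and the median of *Slc7a11* over all 15 libraries was 0.704 CPM per kb. In the 13 libraries the order of these means turned, to 2.96 for *Slc7a11* and 2.88 for *Slc7a7*. The rare members were *Slc7a3* with 0.313, *Slc7a4* with 0.303 and *Slc7a10* with 0.00503 CPM per kb. The upper part of this order was loose. With the longest transcript in place of all exons as the length, *Slc7a8* came first at 21.6 CPM per kb. *Slc7a2* was above *Slc7a5* in 9 of 15 libraries, *Slc7a5* above *Slc7a8* in 6 of 15 and *Slc7a8* above *Slc7a6* in 9 of 15, so these neighbours did not differ beyond their spread. The steps further down were kept in more libraries, with *Slc7a6* above *Slc7a1* in 12 of 15, *Slc7a1* above *Slc7a7* and *Slc7a7* above *Slc7a11* in 14 of 15 each, and *Slc7a11* above *Slc7a3* in 11 of 15. *Slc7a3* and *Slc7a4* traded places with genotype, *Slc7a3* being the higher in 7 of 7 TauT+/+ and in 1 of 8 TauT-/- libraries, an exchange that follows from the difference by which *Slc7a4* was picked.

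**Figure D1:**
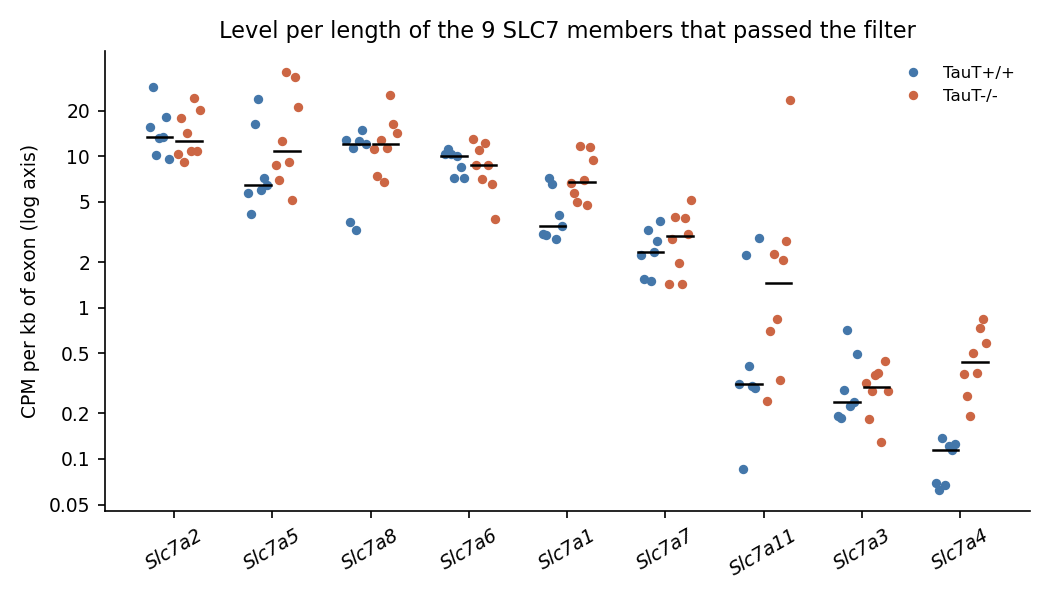
Level of each SLC7 member that passed the filter, in CPM per kb of exon on a log axis, with 1 point per library (7 TauT+/+, 8 TauT-/-) and a bar at the median of each genotype. The 5 abundant members overlap one another, *Slc7a11* has the widest spread, and *Slc7a4* is the member whose genotypes do not overlap.

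*Slc7a4* was a rare transcript that was higher in every TauT-/- library than in every TauT+/+ library. The gene lies on the minus strand of chromosome 16 of GRCm39, from 17386477 to 17401122, and its main transcript has 5 exons. In TauT+/+ MSCs *Slc7a4* was at 0.553, 0.500, 1.11 and 0.538 CPM in the male-labelled libraries 1 to 4 and at 0.977, 0.918 and 1.01 CPM in the female-labelled libraries 1 to 3. In TauT-/- MSCs it was at 2.94, 2.09, 1.54 and 4.03 CPM (male 1 to 4) and 2.99, 5.85, 6.74 and 4.69 CPM (female 1 to 4). The closest libraries across the genotypes were TauT+/+ male 3 and TauT-/- male 3, and the 3 highest were all female-labelled TauT-/- libraries. These are few reads, 12 to 104 in a TauT+/+ and 57 to 354 in a TauT-/- library. The exact 95% Poisson intervals, which cover counting error only, overlapped between the genotypes through TauT-/- male 3 (1.30 to 1.80 CPM), whose interval met those of 4 of the 7 TauT+/+ libraries, male 3 (0.905 to 1.34 CPM) and female 1 to 3 (0.569 to 1.56, 0.474 to 1.60 and 0.635 to 1.53 CPM). The intervals of the other 7 TauT-/- libraries met none of the TauT+/+ intervals. Means were 0.801 ± 0.260 CPM (SD, n = 7) and 3.86 ± 1.82 CPM (SD, n = 8), and the fitted log2 fold change was 2.15 with an SE of 0.28, a 4.44-fold higher level. It was 2.10 or 2.21 in the 13 libraries, depending on which of each pair was kept, 2.13 without the 3 libraries that went against their sex label, and 2.05 to 2.35 when each library was left out in turn. Of all tested genes, 0.692% had every TauT-/- library above every TauT+/+ library. Since *Slc7a4* was picked for this, nothing is read from that share.

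**Figure D2:**
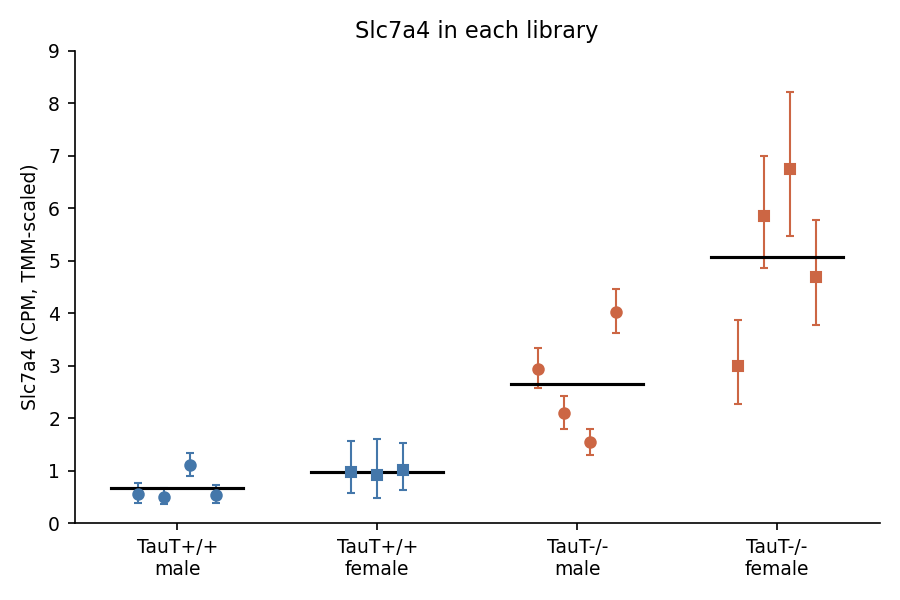
*Slc7a4* in CPM in each of the 15 libraries by genotype and sex label, with exact 95% Poisson intervals for counting error and a line at the mean of each group. TauT+/+ libraries lie between 0.500 and 1.11 CPM and TauT-/- libraries between 1.54 and 6.74 CPM.

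Macrophage markers were, like *Slc7a4*, higher in TauT-/- MSCs, but their sums overlapped between the genotypes where *Slc7a4* did not. Their summed CPM was higher in TauT-/- than in TauT+/+ libraries, with an overlap through the TauT-/- libraries numbered 1, which were nearly the same as each other and had sums of 7222 (male) and 7840 CPM (female) with *Slc7a4* at 2.94 and 2.99 CPM. In 5 TauT+/+ libraries the sum was larger than in both TauT-/- libraries numbered 1, with *Slc7a4* at 0.553 to 1.11 CPM. With the mean log2 CPM of the macrophage markers added to the model, the log2 fold change of *Slc7a4* was 1.88. The part of macrophage RNA in the *Slc7a4* difference was not tested.

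*Slc7a4* shares its place in the genome with *P2rx6*, a gene for an ATP-gated ion channel that overlaps it on the plus strand. Reads were counted by strand, but whether the library kit kept strand is not given in the sources used here, and without it reads of the shared part could go to either gene. *P2rx6* was at 0.229 to 1.01 CPM in TauT+/+ and 0.310 to 1.49 CPM in TauT-/- libraries (log2 fold change 0.25, SE 0.43, edgeR adjusted p = 0.760). Of 7 other protein-coding genes tested within 100 kb of *Slc7a4*, *P2rx6* included, 0 passed the edgeR test and 1 had an unadjusted p under 0.05, with log2 fold changes between -1.02 and 0.30 and a lowest adjusted p of 0.133. That gene, *Lztr1*, was lower and passed in DESeq2 and limma voom.

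Promoters of 3 members are shown because their transcripts head the account below, *Slc7a4* as the member the family was picked for, *Slc7a5* and *Slc7a11* as the light chains that varied most between libraries. Each is the 250 bases of GRCm39 before the start of the main transcript, 5′ to 3′ on the strand of the gene, minus in all 3. They lie at chr16:17394755-17395004, chr8:122634434-122634683 and chr3:50398064-50398313, and the first lies inside *P2rx6*. Capitals mark matches, on either strand, to TGATGNAA, the core of the amino acid response element bound by ATF4 with C/EBP proteins, to TGACNNNGC, the core of the antioxidant response element bound by NRF2, or to CACGTG, the E-box of MYC and TFE factors, which reads the same on both strands.
Slc7a4: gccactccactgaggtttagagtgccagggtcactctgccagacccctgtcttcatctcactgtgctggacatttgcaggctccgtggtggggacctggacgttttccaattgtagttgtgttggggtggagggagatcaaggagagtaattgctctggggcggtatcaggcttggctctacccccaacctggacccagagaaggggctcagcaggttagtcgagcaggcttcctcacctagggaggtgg
Slc7a5: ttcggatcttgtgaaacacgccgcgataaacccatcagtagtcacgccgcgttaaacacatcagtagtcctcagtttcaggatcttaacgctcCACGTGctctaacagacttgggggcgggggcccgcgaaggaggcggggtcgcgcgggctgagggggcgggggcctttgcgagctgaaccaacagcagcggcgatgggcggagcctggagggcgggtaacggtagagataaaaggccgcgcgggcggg
Slc7a11: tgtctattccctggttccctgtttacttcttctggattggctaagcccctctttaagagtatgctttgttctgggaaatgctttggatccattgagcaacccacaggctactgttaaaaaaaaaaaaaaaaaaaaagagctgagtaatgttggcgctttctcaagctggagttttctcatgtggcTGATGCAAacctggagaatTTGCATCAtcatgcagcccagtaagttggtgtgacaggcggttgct
The *Slc7a4* window held none of these letters. The *Slc7a5* window held CACGTG at bases 157 to 152 before the start. The *Slc7a11* window held TGATGNAA at bases 65 to 58 and, on the opposite strand, at bases 46 to 39. Over 21770 promoters of the same length, 3.39% held TGATGNAA, 9.69% TGACNNNGC and 6.26% CACGTG. Among the 10 members 1 held TGATGNAA, 0 held TGACNNNGC and 3 held CACGTG (*Slc7a2*, *Slc7a5* and *Slc7a6*). A match says only that the letters are there.

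*Slc7a1*, the widely expressed arginine and lysine carrier on the minus strand of chromosome 5, had the smallest p of the members beside *Slc7a4*. The TauT+/+ libraries male 1 to 4 and female 1 to 3 held 36.3, 35.5, 84.7 and 77.3 CPM and 33.3, 48.2 and 40.6 CPM. In TauT-/- libraries male 1 to 4 the level was 78.5, 67.7, 58.7 and 139 CPM, and in female 1 to 4 it was 82.0, 55.9, 136 and 112 CPM. Every TauT-/- library was above the TauT+/+ median, and the genotypes overlapped through TauT+/+ male 3 and 4. The mean was 50.8 ± 21.3 CPM (SD, n = 7) against 91.2 ± 33.4 CPM in TauT-/- MSCs (SD, n = 8), and the log2 fold change of 0.87 (SE 0.28) did not pass the test (edgeR adjusted p = 0.0938). The call rested on the tool and on 1 library. DESeq2 gave an adjusted p of 0.0294, and edgeR without TauT+/+ male 3 gave 0.0415. The fit without TauT+/+ male 3 called many more genes of all kinds, 476 higher and 779 lower of 15966, where all 15 libraries gave 94 and 129 of 17204. Over all 29 alternatives the adjusted p of *Slc7a1* ran from 0.0294 to 0.659. In the 13 libraries the log2 fold change was 0.85 or 0.82 (edgeR adjusted p = 0.142 or 0.172), and with the macrophage covariate it was 0.67 (edgeR adjusted p = 0.497). The fit with that covariate called 0 of 17204 genes, and the part of macrophage RNA in the *Slc7a1* difference was not tested.

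The other carriers of cationic amino acids lay within the spread of the libraries. *Slc7a2*, one of the most abundant members per length, had 97.0 to 288 CPM in TauT+/+ and 92.9 to 246 CPM in TauT-/- libraries (log2 fold change -0.08, SE 0.27, edgeR adjusted p = 0.887). *Slc7a3*, an X-linked gene, had 0.901 to 3.44 CPM and 0.624 to 2.15 CPM (log2 fold change -0.18, SE 0.36, edgeR adjusted p = 0.791). Both signs turned in some of the fits that left out a library. Within this branch *Slc7a4* was the member whose genotypes did not overlap, and it was the least abundant per length in TauT+/+ MSCs, with a mean of 0.0999 CPM per kb against 0.333 for *Slc7a3*.

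Of the 8 members tested beside *Slc7a4*, 0 passed the edgeR test at an adjusted p of 0.05, where 1.3% of all genes did, and 1 (*Slc7a1*) passed in DESeq2 and 0 in limma voom, which called 7.67% of all genes. Without adjustment 1 of the 8, again *Slc7a1*, had an edgeR p under 0.05, where 23.6% of all genes did. Of these 8 members, 5 had log2 fold changes above 0, with a median of 0.27, beside -0.02 over all genes tested and 48.3% of genes above 0.

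**Figure D3:**
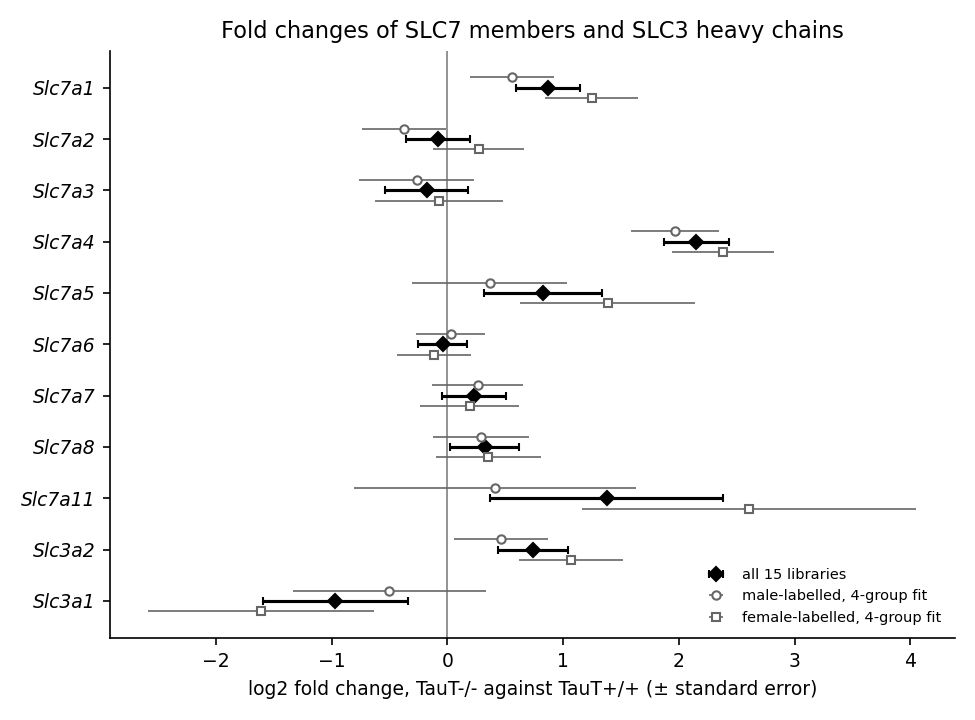
Log2 fold change of TauT-/- against TauT+/+ MSCs with its standard error for the 9 tested SLC7 members and both SLC3 heavy chains, from the fit over all 15 libraries (diamonds) and from the contrasts within male (circles) and female labels (squares). *Slc7a4* lies at 2.15, *Slc7a1*, *Slc7a5* and *Slc3a2* lie between 0.74 and 0.87, and *Slc7a11* has the widest error.

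*Slc7a5*, the large neutral amino acid carrier known as LAT1, varied between libraries more than between genotypes. It stood at 22.0, 15.9, 63.0 and 92.1 CPM in TauT+/+ male 1 to 4 and at 23.1, 27.7 and 25.0 CPM in TauT+/+ female 1 to 3. It stood at 33.7, 26.9, 48.5 and 139 CPM in TauT-/- male 1 to 4 and at 35.1, 19.6, 128 and 81.0 CPM in TauT-/- female 1 to 4. High and low libraries occurred in both genotypes, and 2 TauT-/- libraries exceeded the highest TauT+/+ library. The log2 fold change was 0.82 (SE 0.51, edgeR adjusted p = 0.343). Its heavy chain *Slc3a2* was at 95.8 to 182 CPM in TauT+/+ and 133 to 712 CPM in TauT-/- libraries, with 4 of 8 TauT-/- libraries above every TauT+/+ library (log2 fold change 0.74, SE 0.30, edgeR adjusted p = 0.159). The highest *Slc3a2* value was that of TauT-/- female 4. The other heavy chain, *Slc3a1*, which pairs with *Slc7a9* in the kidney, was nearly silent at 0 to 0.921 CPM.

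The remaining light chains differed little between the genotypes. *Slc7a6* had 46.5 to 73.1 CPM in TauT+/+ and 24.9 to 85.1 CPM in TauT-/- libraries (log2 fold change -0.04, SE 0.21, edgeR adjusted p = 0.932), and its lowest library was TauT-/- female 4. *Slc7a7* had 9.04 to 22.8 CPM and 8.64 to 31.1 CPM (log2 fold change 0.23, SE 0.28, edgeR adjusted p = 0.650). *Slc7a8* had 30.1 to 138 CPM and 62.9 to 235 CPM (log2 fold change 0.32, SE 0.30, edgeR adjusted p = 0.533). *Slc7a10* was at 0 to 16 counts per library, and 5 of 15 libraries had 0 counts, where a count of 0 allows up to 3 counts. Of the 5 other SLC7 genes in the table, *Slc7a9*, *Slc7a12*, *Slc7a13*, *Slc7a14* and *Slc7a15*, 0 passed the filter, and *Slc7a9* and *Slc7a12* had 0 counts in all 15 libraries.

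**Figure D4:**
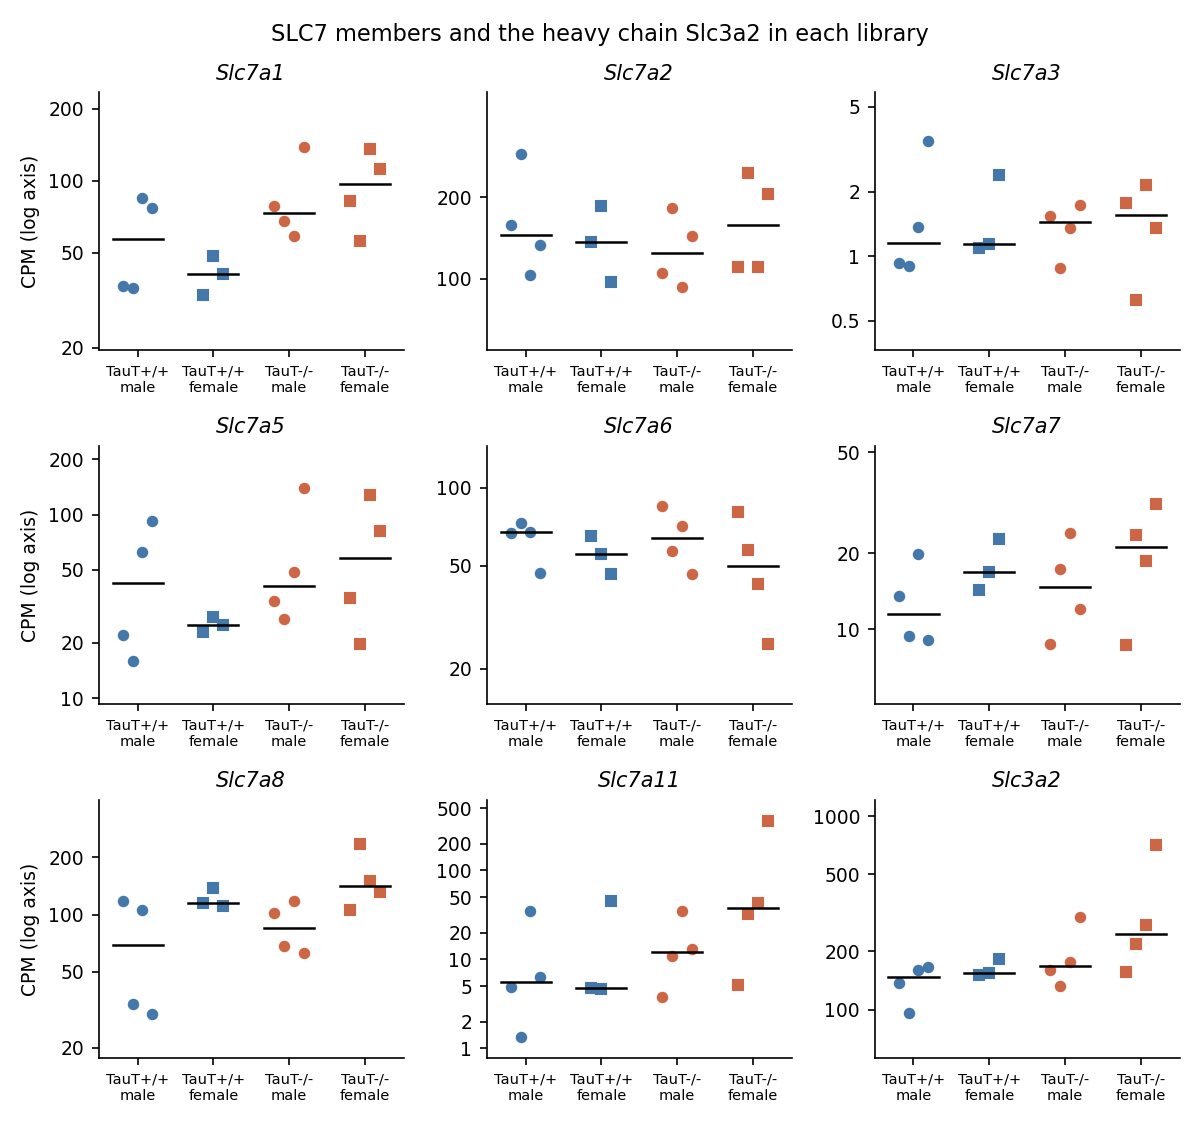
CPM of 8 SLC7 members and of the heavy chain *Slc3a2* in each library on log axes, by genotype and sex label, with a bar at the median of each group. The genotypes overlap in every panel, and TauT-/- female 4 is the highest library for *Slc7a11* at 363 CPM and for *Slc3a2* at 712 CPM.

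*Slc7a11*, the cystine importer known as xCT, had the widest range of the family, from 1.33 to 363 CPM. TauT+/+ male 1 to 4 contained 4.86, 1.33, 34.6 and 6.41 CPM, and TauT+/+ female 1 to 3 contained 4.71, 4.59 and 45.0 CPM. TauT-/- male 1 to 4 contained 3.74, 10.9, 34.8 and 13.1 CPM, and TauT-/- female 1 to 4 contained 5.19, 32.2, 42.4 and 363 CPM. TauT-/- female 4 was 8.06 times as high as the next library, and the other 7 TauT-/- libraries, at 3.74 to 42.4 CPM, lay within the TauT+/+ range. The log2 fold change of 1.38 (SE 1.01, edgeR adjusted p = 0.425) became 0.47 (edgeR adjusted p = 0.749) without TauT-/- female 4 and 2.25 (edgeR adjusted p = 0.126) without TauT+/+ male 3. With the macrophage covariate its sign turned, to -0.56 (edgeR adjusted p = 0.877), and over the 29 alternatives the adjusted p ran from 0.126 to 0.897. The lowest *Slc7a11* value was in TauT+/+ male 2, the library with the lowest macrophage sum, and the highest was in TauT-/- female 4, the library with the highest. Between these ends the levels did not keep the order of the sums throughout. For example, TauT+/+ female 3 had 45.0 CPM at a sum of 10352 CPM, and TauT-/- male 4 had 13.1 CPM at 16796 CPM. The part of macrophage RNA in these levels was not tested.

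**Figure D5:**
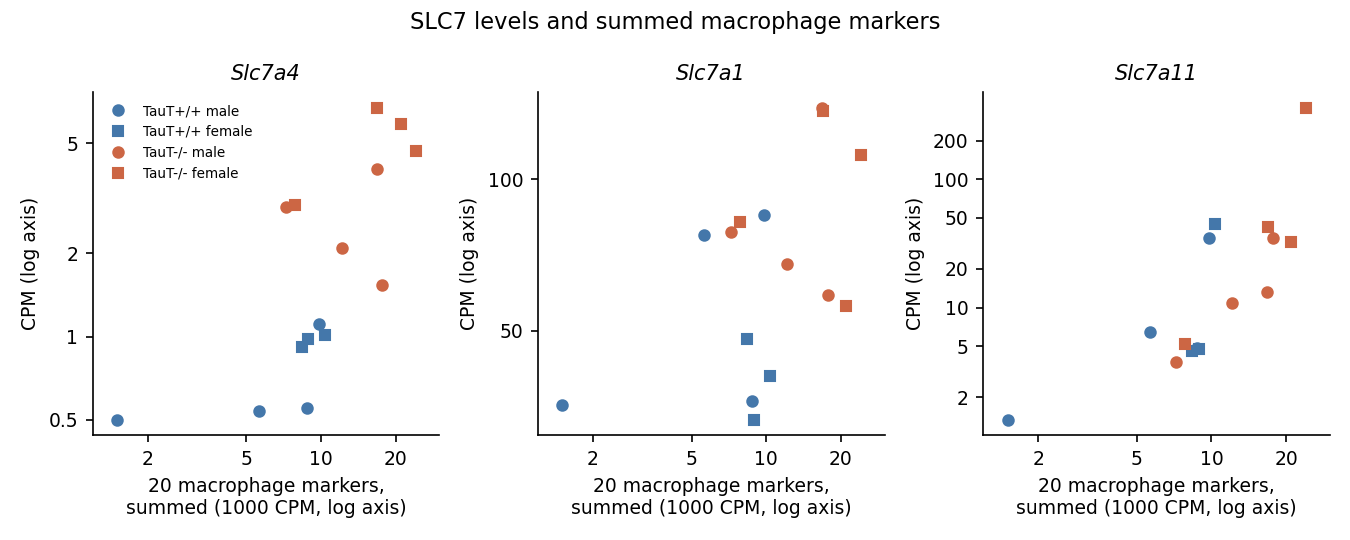
CPM of *Slc7a4*, *Slc7a1* and *Slc7a11* against the summed CPM of 20 macrophage markers in each library, on log axes, coloured by genotype and shaped by sex label. The sums overlap between the genotypes through the TauT-/- libraries numbered 1 (7222 and 7840 CPM). *Slc7a11* is lowest at the smallest sum, 1507 CPM, and highest at the largest, 24087 CPM, but does not keep the order of the sums throughout between them.

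Genes of cysteine and glutathione metabolism, into which the cystine imported by *Slc7a11* feeds, gave no edgeR call. Of 14 tested genes of cysteine and glutathione metabolism, 0 passed the edgeR test, 3 had an unadjusted p under 0.05, 0 passed in limma voom and 1 passed in DESeq2, *Gpx1*, a glutathione peroxidase that removes hydrogen peroxide (log2 fold change 0.57, DESeq2 adjusted p = 0.0466, range 0.0466 to 0.692 over the 29 alternatives). *Gpx4*, which reduces lipid peroxides, had a log2 fold change of -0.10. The median log2 fold change of the 14 genes was 0.03, beside -0.02 over all genes. Over all genes, 23.6% had an unadjusted p under 0.05. In either direction edgeR called 1.3%, DESeq2 11.6% and limma voom 7.67% of them. Of 12 genes of the NRF2 axis, the oxidative stress response of which *Slc7a11* is itself a target, 0 passed the edgeR test. An unadjusted p under 0.05 was reached by 4, and 8 had log2 fold changes above 0, where 48.3% of all genes did. DESeq2 and limma voom each called 1 of the 12, *Tkt*, an enzyme of the pentose phosphate pathway. *Hmox1*, the haem-degrading enzyme, had 157 to 1146 CPM in TauT+/+ and 398 to 3645 CPM in TauT-/- libraries, and *Prdx1*, a peroxiredoxin, had 336 to 1031 CPM and 495 to 3520 CPM. The highest value of both was in TauT-/- female 4, as for *Slc7a11*, and without that library their log2 fold changes were 0.33 and 0.46.

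*Slc7a1*, *Slc7a5* and *Slc7a11* are also known targets of the amino acid response, in which ATF4 raises transporter and biosynthesis genes when amino acids are short. The 4 libraries with the most *Slc7a5* were TauT-/- male 4, TauT-/- female 3, TauT+/+ male 4 and TauT-/- female 4. For *Slc7a1*, *Slc7a4* and *Slc3a2*, 3 of the 4 highest libraries were among these, and for *Slc7a11* 2 were. Of 17 amino acid response genes, 6 (*Ddit3*, *Trib3*, *Asns*, *Mthfd2*, *Aldh1l2* and *Atf5*) had exactly these 4 libraries on top and 13 shared at least 3 of them. Of 20 genes of arginine and polyamine metabolism, 1 had all 4 and 2 shared at least 3. These counts were made after the values were seen and carry no test. The share over all tested genes was not counted, and *Slc7a5*, which set the 4 libraries, is itself a target of this response. Of the 4 libraries, 3 were TauT-/- and 1 was TauT+/+, so a gene higher in TauT-/- MSCs, *Slc7a4* included, tends to share them. Between the genotypes 0 of the 17 genes passed the edgeR test and 3 had an unadjusted p under 0.05, where 1.3% and 23.6% of all genes did. DESeq2 called 1, *Vldlr*, and limma voom 0, where they called 11.6% and 7.67% of all genes. In all, 15 of 17 log2 fold changes were above 0, where 48.3% of all genes were. The median was 0.33, beside -0.02 over all genes. The list was written with earlier results known, and it was not tested as a set. *Atf4* had 160 to 287 CPM in TauT+/+ and 144 to 637 CPM in TauT-/- libraries (log2 fold change 0.25, edgeR adjusted p = 0.642), and *Atf5*, a related factor, had a log2 fold change of 0.19 (edgeR adjusted p = 0.861).

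Other amino acid transporters held a single edgeR call. Of 20 tested, 0 passed as higher and 1 as lower (8 had an unadjusted p under 0.05, DESeq2 called 2 and 3, limma voom 1 and 2). Over all genes, 23.6% had an unadjusted p under 0.05. In either direction edgeR called 1.3%, DESeq2 11.6% and limma voom 7.67% of all genes. The edgeR call of this list was *Slc36a2*, a proton-coupled carrier of glycine, proline and alanine. It was at 0.277 to 26.8 CPM in TauT+/+ and 0 to 0.933 CPM in TauT-/- libraries (log2 fold change -4.71, SE 1.06, edgeR adjusted p = 0.0464), and TauT+/+ male 3 and 4 lay in the TauT-/- range. The call held in 3 of 15 fits without 1 library and was lost in the 13 libraries (adjusted p = 0.0864 or 0.102). The most abundant transporters of this list did not pass. *Slc38a2*, a sodium-coupled neutral amino acid carrier that the amino acid response also raises, had a log2 fold change of -0.25 (edgeR adjusted p = 0.604), and *Slc43a2*, a carrier of large neutral amino acids, had 0.29 (edgeR adjusted p = 0.620). *Slc1a5*, the glutamine carrier ASCT2, was named after its values were seen. Its mean was 194 CPM in TauT+/+ and 77.3 CPM in TauT-/- libraries (log2 fold change -1.30, SE 0.40, edgeR adjusted p = 0.0858), a difference that passed in DESeq2 (adjusted p = 0.0215) and in limma voom. Others named in the same way went both ways. *Slc36a4* was higher (log2 fold change 0.61, edgeR adjusted p = 0.0824) and passed in DESeq2 and limma voom. *Slc1a2* was higher (1.57, edgeR adjusted p = 0.107) and passed in DESeq2 alone. *Slc43a1* was lower (-1.60, edgeR adjusted p = 0.101) and passed in DESeq2 and limma voom.

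Genes of arginine and polyamine metabolism, only some of which use the arginine brought in by *Slc7a1* and *Slc7a2*, gave 0 edgeR calls among 20. Of these, 8 had an unadjusted p under 0.05, where 23.6% of all genes did. The median log2 fold change was 0.16, beside -0.02 over all genes. DESeq2 called 4 higher and 2 lower, and limma voom 0 and 2. Of all genes, edgeR called 1.3%, DESeq2 11.6% and limma voom 7.67%. The list was written with earlier results known, and it was not tested as a set. *Arg1*, the arginase that makes ornithine and urea, had 16.8 to 187 CPM in TauT+/+ and 39.5 to 999 CPM in TauT-/- libraries (log2 fold change 1.72, edgeR adjusted p = 0.122, DESeq2 adjusted p = 0.0285). *Oat*, which converts ornithine onward, had a log2 fold change of -0.44 (edgeR adjusted p = 0.0998, DESeq2 adjusted p = 0.0465). Both are further genes whose edgeR adjusted p fell under 0.05 without TauT+/+ male 3, at 0.0456 and 0.0449, in the fit that called 476 genes higher and 779 lower. Over the 29 alternatives the adjusted p ran from 0.0285 to 0.688 for *Arg1* and from 0.0449 to 0.635 for *Oat*.

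Within sex labels, fold changes of the members were larger in the female-labelled, shallower libraries for *Slc7a1*, *Slc7a5* and *Slc7a11*, but no difference between the labels passed a test. *Slc7a4* had log2 fold changes of 2.38 (SE 0.44) in female- and 1.97 (SE 0.38) in male-labelled libraries, *Slc7a1* 1.25 (SE 0.40) and 0.56 (SE 0.36), *Slc7a5* 1.38 (SE 0.75) and 0.36 (SE 0.67), and *Slc7a11* 2.61 (SE 1.45) and 0.41 (SE 1.22). The difference between the labels had unadjusted edgeR p-values of 0.470, 0.217, 0.322 and 0.251 for these 4 genes, and over all genes 0 differences passed the adjusted edgeR test, 242 had an unadjusted p under 0.05 and DESeq2 called 2. Within either label edgeR called 0% of all genes, *Slc7a4* included. DESeq2 called 2.52% of genes under the female label (200 higher, 210 lower) and 0.466% under the male label (33 higher, 43 lower), with none of the 8 members beside *Slc7a4* among them. Every TauT-/- library of a label was above every TauT+/+ library of it for 0 of the 8 members beside *Slc7a4* under the male label, where 2.24% of all genes were so ordered, and for 1 (*Slc7a1*) under the female label, where 6.29% were. *Slc7a4* was so ordered under both labels, which follows from the values it was picked for.

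The genes whose log2 CPM followed *Slc7a4* most closely over the 15 libraries, among 13199 genes with a mean of at least 1 CPM, were *Lgmn* (Pearson r = 0.94), *Frrs1* (0.93), *Pcna* (0.91), *Tnfsf13os* (0.91) and *Snx5* (0.91). Spearman's rho for them was 0.92 to 0.94. The likeness includes the step between the genotypes by which *Slc7a4* was picked, and the libraries share depth and culture, so these values are descriptions. *Lgmn*, a lysosomal protease, had 174 to 257 CPM in TauT+/+ and 330 to 682 CPM in TauT-/- libraries. *Pcna*, the sliding clamp of DNA replication, had 35.8 to 54.4 CPM and 59.9 to 90.7 CPM. For neither gene did the genotypes overlap, where 0.692% of all tested genes had every TauT-/- library above every TauT+/+ library. Both were picked for likeness to *Slc7a4*, so nothing is read from this. Among the other members the closest to *Slc7a4* was *Slc7a1*, with r = 0.71 at rank 615, and *Slc7a11* followed at rank 1786 with r = 0.55.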

How the data were processed

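The deposited values are whole-number counts of reads per gene, not normalized, and 0 columns were left without a sample. Per the study's methods, the authors amplified full-length cDNA from the poly(A) tail, filtered reads with fastp 0.23.1, mapped them with STAR 2.7.9a to GRCm39 with GENCODE M31 and counted them by strand with featureCounts (Subread 2.0.1). The authors' own test used DESeq2 with sex and condition.

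Here edgeR 4.0.16 in R 4.3.3 was used for TMM scaling, filterByExpr and the quasi-likelihood test, with sex label and genotype as terms and p adjusted over 17204 genes. The biological coefficient of variation was 0.482. Contrasts within a sex label used 1 term per group. Library pairs were compared over 9102 genes with at least 100 counts in each library. CPM are counts over effective library size. Length is the union of exons in GENCODE M39 on GRCm39, from which positions and promoters were also read. Other statistics used Python 3.11.15 and SciPy 1.17.1. No protein sequence was used here.

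The members and all lists were chosen with earlier results of these data known. Named genes are the members, *Slc6a6*, the SLC3 heavy chains, for each other list its edgeR calls and its 2 most abundant genes, and the 5 genes most like *Slc7a4* by Pearson correlation of log2 CPM. Genes named after their values were seen are *Slc1a5*, *Slc36a4*, *Slc1a2*, *Slc43a1*, *Ptprc*, *P2rx6*, *Lztr1*, *Tkt*, *Vldlr*, *Cd68*, *Ctss*, *Cd44* and the amino acid response genes sharing the highest libraries.

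Alternatives were DESeq2 1.42.0 (filtering optimised for 0.05), limma 3.58.1 voom with quality weights, other normalizations and filters, no sex term, a replicate block, a macrophage covariate, subsets of libraries and longest transcripts. On simulated counts for 17204 genes with 200 changed 4-fold, edgeR recovered 149 (74.5%) among its 155 calls. DESeq2 made 222 calls with 50 on unchanged genes, and voom 156 with 9. The simulated counts were drawn for each gene on its own from edgeR's dispersions. They held no sex effect, no macrophage difference and no near-identical libraries, so they cannot rank the tools on the real counts.

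Depth ranged from 12761107 to 101575071 counts per library. At the lowest depth 3 counts of a gene correspond to 0.229 CPM, the limit for a gene with 0 counts. Reads amplified by PCR without molecular identifiers are not independent molecules, so intervals cover counting error only.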

Additional observations from a re-analysis of the deposited data

Results flagged for a closer look

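Within groups of 4 libraries, the highest or lowest value lay apart from the other 3 by Dixon's 95% criterion in 11 of 87 cases. For independent, normally distributed values about 1 in 20, or 4.35, would do so. The CPM were not log-transformed, every flagged value was a high one, and the cases share libraries. The 4.35 is therefore no measure of chance here, and no excess is read from it. The ratio given is the gap to the nearest library over the whole range of the group.

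TauT+/+ male 3 was high among male-labelled TauT+/+ libraries for *Slc7a4* (ratio 0.913, 1.11 CPM) and for *Slc7a11* (ratio 0.847, 34.6 CPM). TauT+/+ male 4 was high for *Atf4* (ratio 0.927, 287 CPM). TauT-/- female 4 was high among female-labelled TauT-/- libraries for *Slc7a11* (ratio 0.896, 363 CPM), *Gpx4* (ratio 0.857, 162 CPM), *Prdx1* (ratio 0.834, 3520 CPM) and *Hmox1* (ratio 0.899, 3645 CPM). The libraries numbered 1 of TauT-/- MSCs, which were nearly the same as each other, were high for *Slc3a1* (male ratio 0.945, 0.748 CPM, and female ratio 0.922, 0.891 CPM), and the female-labelled one also for *Slc36a2* (ratio 0.847, 0.681 CPM) and *Slc38a2* (ratio 0.892, 554 CPM).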

How the results depend on the processing

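Of the 94 genes higher and 129 lower in TauT-/- MSCs, DESeq2 gave 952 and 1139, voom 611 and 708, no filter on low counts 32 and 42, no sex term 188 and 258, and at least 10 counts in every library 115 and 200. The macrophage covariate, either sex label alone, and leaving out the 3 libraries against their sex label gave 0 and 0. The 13 libraries gave 2 higher and 0 lower with the female-labelled, and 7 and 0 with the male-labelled library of each pair kept. Leaving out 1 library gave 8 to 476 higher and 4 to 779 lower, with both of the largest counts in the fit without TauT+/+ male 3. The members called beside *Slc7a4* were 0, 1 in DESeq2, and 0 to 1 (*Slc7a1*) without 1 library. Within sex labels and for their difference the leave-one-out counts were 0 to 0.

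A replicate block (same number and sex label) gave 82 higher and 177 lower and turned *Slc7a6* to 0.038, *Atf4* to -0.060 and *Atf5* to -0.34. Deviations of same-numbered libraries correlated at -0.040 to 0.62, not above 0.1 for every number, and 11 of 14 libraries correlated best with their own number.

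Log2 fold changes turned sign as follows. With the macrophage covariate they were 0.21 for *Slc7a2*, 0.16 for *Slc7a6*, -0.32 for *Slc7a7*, -0.12 for *Slc7a8*, -0.56 for *Slc7a11*, 0.071 for *Slc38a2*, -0.50 for *Slc43a2*, -0.32 for *Atf5* and -0.025 for *Hmox1*. Female-labelled libraries alone gave 0.30 for *Slc7a2*. Male-labelled libraries alone gave 0.035 for *Slc7a6*, -0.34 for *Atf5* and -0.076 for *Atf4*. Voom gave -0.16 for *Atf5*, and the 13 libraries with the male-labelled ones kept 0.013 for *Gpx4*. Without 1 library the ranges were -0.18 to 0.13 for *Slc7a2*, -0.29 to 0.15 for *Slc7a3*, -0.14 to 0.062 for *Slc7a6*, -0.14 to 0.0029 for *Gpx4*, -0.25 to 0.54 for *Atf5* and -0.060 to 0.41 for *Atf4*. The cause was not tested.

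With the longest transcript as length, *Slc7a1* was at 9.74, *Slc7a6* at 14.9, *Slc7a7* at 4.69 and *Slc7a8* at 21.6 CPM per kb. The other changes of a call touched *Slc7a1*, *Slc6a6*, *Slc36a2*, *Oat*, *Arg1* and *Gpx1*. The low depth of the female-labelled libraries limits *Slc7a3*, *Slc7a4* and *Slc7a10*.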
